A study of Mus musculus with 15 samples.

Results

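The mouse miR-17-92 cluster is a set of 6 microRNA hairpins cut from 1 primary transcript, and the 6 guide arms of those hairpins (miR-17-5p, miR-18a-5p, miR-19a-3p, miR-20a-5p, miR-19b-3p and miR-92a-3p) are described here. They were chosen by name, by a rule that uses no measured value, although earlier results of these data were known. They are 6 of the 809 miRNA arms that had reads. A small RNA insert of 18 to 26 bases was counted for an arm when its first 18 bases matched that arm exactly. Levels are reads per 1000000 miRNA reads of the library (CPM); each read is 1 insert, so no correction for length enters.

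Small RNA was sequenced from 15 libraries in 5 groups of 3, with the stated aim of finding miRNAs that regulate the progesterone receptor in lines expressing Her2 and in the particles they shed. The groups were TUBO exosomes (vesicles isolated from the medium of TUBO cultures), TUBO supernatant (the medium that remained after that isolation), TUBO cells (a breast cancer line from primary tumours of Balb-NeuT mice, which carry an activated Neu transgene), MM3MG-Her2 cells (MM3MG transduced with pLSXN-Neu retroviral particles) and MM3MG cells (a mammary epithelial line from BALB/c mice, described as normal). Neu is the rodent counterpart of Her2. All cultures grew in DMEM with fetal calf serum, and the labels name no treatment. Each line is 1 line, so a difference between TUBO and MM3MG is a difference between these 2 lines, and the labels name no empty-vector control for the transduction. The labels do not say whether replicates were separate cultures, so p-values measure the spread between these libraries, which may be technical.

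The libraries held 196152 to 710902 reads, of which 56686 to 521168 were miRNA reads. The shallowest were those of the supernatant, with 56686 to 74419 miRNA reads, and inserts of at most 20 bases made up 28.9% ± 4.70 of them (SD, n = 3), against 10.1% ± 0.279 in TUBO cells. MM3MG is labelled epithelial, but the 7 epithelial marker arms of the miR-200 family, miR-203-3p and miR-205-5p summed to 21.2 to 32.7 CPM there and to 12.1 to 41.8 CPM in MM3MG-Her2, where 2 were at 0, against 25306 to 26585 CPM in TUBO cells. The 5 stromal marker arms, of which 1 was at 0 in TUBO cells, summed to 48369.8 to 48504 CPM in TUBO cells, 95739 to 99939.5 CPM in MM3MG-Her2 and 165071 to 180672 CPM in MM3MG. In TUBO cells miR-143-3p alone averaged 48172.5 CPM of that sum. miR-199a-3p, counted jointly with miR-199b-3p, averaged 81.0 CPM there, 30547 CPM in MM3MG-Her2 and 58888 CPM in MM3MG. Of 10 arms typical of blood cells, serum or endothelium, none was at 0 in exosomes, where they summed to 10904 to 26129 CPM. In the supernatant 6 of them were at 0 and they summed to 3158 to 7391 CPM, while in TUBO cells 7 were at 0 and they summed to 131 to 163 CPM. They summed to 735 to 892 CPM in MM3MG-Her2, with 6 at 0, and to 1132 to 1292 CPM in MM3MG, with 5 at 0. Most of each sum was miR-486a-5p (counted jointly with miR-3107-5p), which averaged 14864 CPM in exosomes and 4551.5 CPM in the supernatant. The part that these differences play in the results on the cluster was not tested, and in the medium fractions miRNA from the cells and from the serum cannot be told apart.

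As background, the miR-17-92 cluster is a target of the transcription factor Myc, is often amplified or overexpressed in tumours and is known as an oncogenic miRNA cluster. A miRNA guide arm is loaded into Argonaute and finds its target mRNAs mainly through its seed, the bases next to its 5′ end, while the opposite (passenger) arm of the hairpin is mostly degraded. Known targets include cell cycle and apoptosis genes such as E2f1, Cdkn1a and Bcl2l11 for the miR-17 seed.

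The 6 hairpins lie in a stretch of 836 bases on the plus strand of chromosome 14 (chr14:115043671-115044506, GRCm38), all inside exon 2 of the non-coding host gene Mir17hg (exon 2 runs from 115043271 to 115046727). The mature sequences from RefSeq (GRCm38.p6) are shown because they define the families and the counts; capitals mark the seed, bases 2 to 8.
miR-17-5p: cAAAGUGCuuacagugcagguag
miR-20a-5p: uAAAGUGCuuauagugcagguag
miR-18a-5p: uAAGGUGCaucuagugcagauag
miR-19a-3p: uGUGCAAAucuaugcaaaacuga
miR-19b-3p: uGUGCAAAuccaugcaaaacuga
miR-92a-3p: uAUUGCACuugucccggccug

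The 6 arms carry 4 seeds. miR-17-5p and miR-20a-5p share AAAGUGC and differ in their first 18 bases by C1U and C12U, counting from 1 at the 5′ end of miR-17-5p. miR-19a-3p and miR-19b-3p share GUGCAAA and differ there by 1 base, U11C. miR-18a-5p (AAGGUGC) and miR-92a-3p (AUUGCAC) each have a seed of their own within the cluster. The content of G and C was lowest in miR-19a-3p (34.8%) and highest in miR-92a-3p (57.1%).

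miR-19b-3p and miR-92a-3p are also encoded by a paralogous cluster on chromosome X, miR-106a-363, and reads of both copies are counted together. Its other guide arms miR-106a-5p, miR-18b-5p and miR-20b-5p had 0 reads in the 15 libraries and miR-363-3p had 1 read, out of 4187222 miRNA reads. The passenger arms particular to the X-linked copies, miR-19b-2-5p and miR-92a-2-5p, had 0 reads. Of 263301 miR-92a-3p reads that reached base 22, 98.96% had the U of the chromosome 14 hairpin there, which can also be an added U. The A of the X-linked hairpin stood there in 0.534%. Of 62 miR-19b-3p reads that reached base 24, 12.9% had the C of the chromosome 14 hairpin and 62.9% the U of the X-linked hairpin. That U can also be an added U, so these few reads cannot tell the copies of miR-19b-3p apart.

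**Figure D1:**
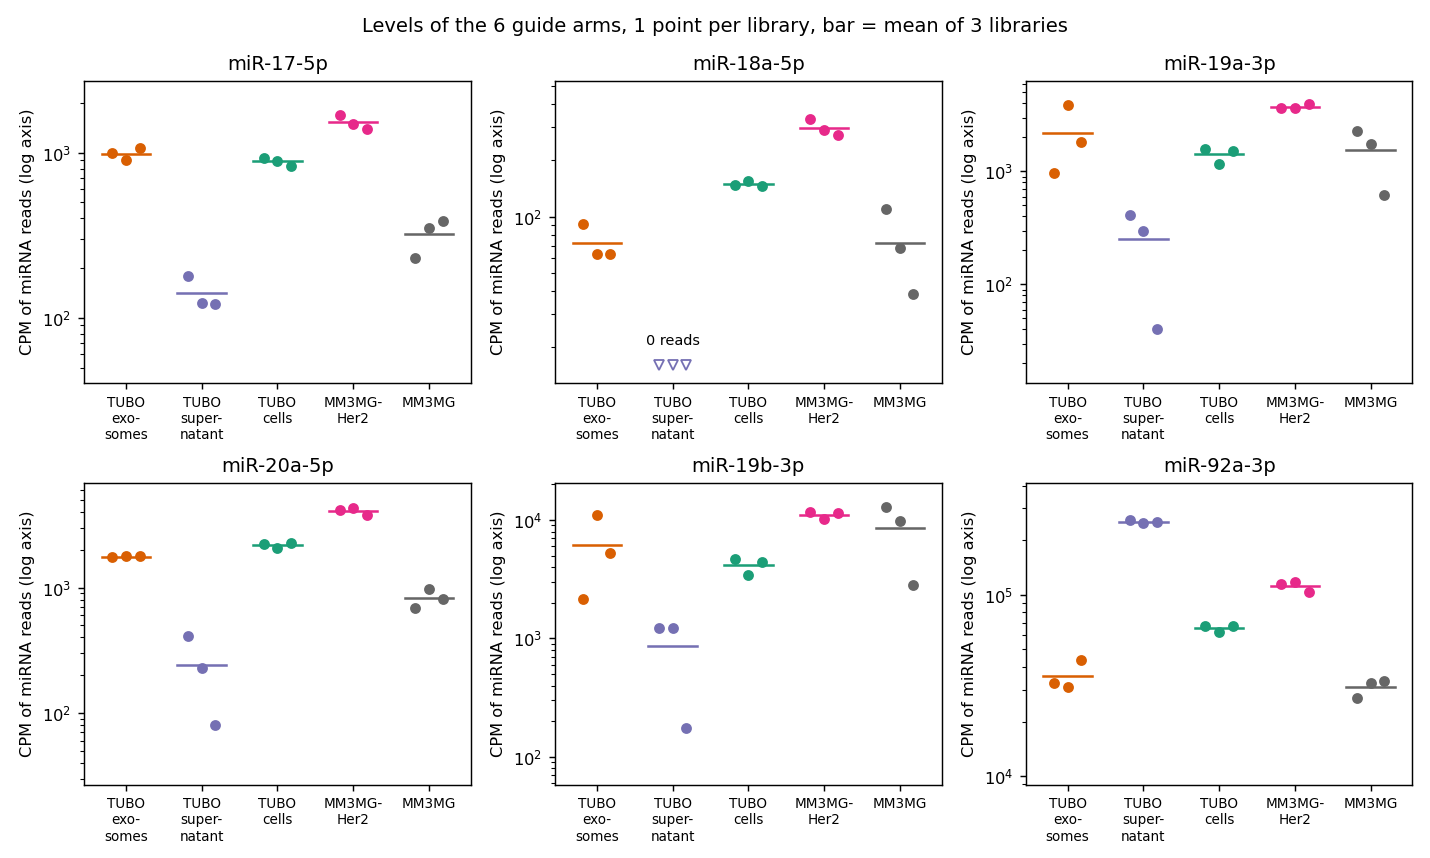
Level of each guide arm in every library, in CPM of miRNA reads on a log axis, by group; points are libraries and bars are means of 3. miR-92a-3p is highest in the supernatant, at 248015 to 259327 CPM, where miR-18a-5p had 0 reads in all 3 libraries, drawn as open triangles at the foot of the panel.

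Among the cells, the summed share of the 6 arms in the miRNA reads was 7.44% ± 0.374 in TUBO cells, 13.3% ± 0.731 in MM3MG-Her2 and 4.23% ± 0.386 in MM3MG (SD, n = 3 each). In the medium of TUBO cells it was 4.69% ± 0.764 in exosomes and 25.4% ± 0.641 in the supernatant. In each of the 6 comparisons of this share the exact two-sided permutation test gave p = 0.1, the smallest that 3 libraries against 3 allow. As a share of all reads, which also counts inserts that are no miRNA, the 6 arms held 2.67% ± 0.414 in exosomes, 7.47% ± 0.796 in the supernatant, 5.49% ± 0.274 in TUBO cells, 6.58% ± 0.549 in MM3MG-Her2 and 3.03% ± 0.273 in MM3MG. The order of TUBO cells below MM3MG-Her2 and above MM3MG was kept on that scale.

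The first comparison sets MM3MG-Her2 against untransduced MM3MG, where Neu and the transduction itself cannot be told apart. Of the 6 guide arms, 4 were higher in MM3MG-Her2 than in MM3MG, none was lower, and miR-19a-3p and miR-19b-3p did not pass the threshold. The adjusted p-values here and below come from edgeR's quasi-likelihood test with Benjamini-Hochberg adjustment over all arms tested, with a threshold of 0.05. Of the 260 arms tested, 59.6% passed it in either direction and 26.2% were higher. The split of called arms, 68 higher and 87 lower, was 88 and 76 with upper-quartile scaling, 38 and 94 with all 15 libraries in 1 fit, 51 and 139 without MM3MG replicate 1, 38 and 119 without MM3MG replicate 3, 36 and 120 without MM3MG-Her2 replicate 1 and 34 and 126 without MM3MG-Her2 replicate 3. The median log2 change was 1.88 over the 6 guide arms and -0.07 over all arms tested. In these bulk libraries more cells with an arm and more of it per cell cannot be told apart.

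For the miR-17 seed, miR-17-5p was at 1700.2, 1498 and 1392 CPM in the 3 MM3MG-Her2 libraries, against 229, 351 and 384 CPM in MM3MG. miR-20a-5p was at 4123, 4272 and 3800.3 CPM in MM3MG-Her2, against 685, 979 and 807 CPM in MM3MG. The libraries of the groups did not overlap for either arm; such a separation was seen for 65.8% of all arms tested, with 32.3% higher and 33.5% lower in MM3MG-Her2. Both arms were higher in MM3MG-Her2, with a log2 change of 2.15 ± 0.17 (SE) for miR-17-5p (edgeR adjusted p = 4.3e-12) and 2.20 ± 0.14 for miR-20a-5p (edgeR adjusted p = 5.2e-14).

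miR-18a-5p, the least abundant of the 6, was at 332, 291 and 275 CPM in MM3MG-Her2, against 109, 68.0 and 38.7 CPM in MM3MG, and its log2 change was 1.99 ± 0.25 (edgeR adjusted p = 6.4e-08). miR-92a-3p, the most abundant, was at 114409, 117905 and 103479 CPM in MM3MG-Her2, against 26917, 32543 and 33374 CPM in MM3MG. Its log2 change was 1.76 ± 0.11 (edgeR adjusted p = 2.7e-14), and for both arms every MM3MG-Her2 library stood above every MM3MG library. The changes of these 4 arms passed the threshold under each of the 17 alternatives run. Their lowest values over these alternatives were 1.22 for miR-92a-3p and 1.52 for miR-17-5p, both without MM3MG replicate 1, 1.23 for miR-18a-5p, without MM3MG replicate 3, and 1.63 for miR-20a-5p. The median of all arms moved as well. It was -0.54 without MM3MG replicate 1 and -0.51 without MM3MG replicate 3, against -0.07 with all libraries.

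Of the miR-19 pair, miR-19a-3p was at 3650.45, 3651 and 3944 CPM in MM3MG-Her2, against 2291, 1765 and 619 CPM in MM3MG. Its libraries did not overlap, but the log2 change of 1.16 ± 0.43 missed the threshold (edgeR adjusted p = 0.0565), which it passed under 7 of 17 alternatives. miR-19b-3p was at 11615, 10261 and 11431 CPM in MM3MG-Her2, against 12912, 9895 and 2821 CPM in MM3MG. These libraries overlapped, and the log2 change was 0.27 ± 0.50 (edgeR adjusted p = 0.680). The direction of miR-19b-3p turned when single libraries were left out. Without MM3MG replicate 3 its log2 change was -0.61 (edgeR adjusted p = 3.2e-04), and without MM3MG-Her2 replicate 1 or 3 it was -0.24 or -0.28. Without MM3MG replicate 3 that of miR-19a-3p was 0.31 (edgeR adjusted p = 0.0571). The median of all arms was then -0.51, and -0.63 without either of these MM3MG-Her2 libraries, against -0.07 with all.

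TUBO cells were compared with MM3MG as a tumour line with a Neu transgene against an untransduced line. In TUBO cells 4 guide arms were higher, miR-19b-3p was lower, and miR-19a-3p did not pass the threshold. The background was large: 83.1% of the 260 arms passed in either direction, with 30% higher and 53.1% lower, and the median of all arms was -0.53. This comparison shares its MM3MG libraries with the one above. The split of all called arms, 78 higher and 138 lower, became 116 higher and 101 lower when the 6 guide arms were left out of the totals and the scaling.

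miR-17-5p was at 929, 894 and 837 CPM in TUBO cells, above all 3 MM3MG libraries, with a log2 change of 1.07 ± 0.17 (edgeR adjusted p = 1.1e-06). miR-20a-5p was at 2202, 2066 and 2274 CPM, also above all 3, with 1.01 ± 0.14 (edgeR adjusted p = 1.0e-07). miR-92a-3p was at 67018, 62324 and 67282 CPM, with 0.70 ± 0.11 (edgeR adjusted p = 8.0e-07), and miR-18a-5p at 148, 155 and 146 CPM, with 0.69 ± 0.25 (edgeR adjusted p = 0.0143). For these 4 arms every TUBO library exceeded every MM3MG library; of all arms, 82.3% had no overlap, with 36.5% higher and 45.8% lower. With the 6 arms left out of totals and scaling the changes were larger, at 1.81 for miR-17-5p, 1.76 for miR-20a-5p, 1.45 for miR-92a-3p and 1.44 for miR-18a-5p; that of miR-18a-5p was 1.14 without MM3MG replicate 1, and in a fit of all 15 libraries it was 0.45 (edgeR adjusted p = 0.225). miR-19b-3p was at 4705, 3452 and 4465 CPM in TUBO cells, inside the wide range of MM3MG, and its log2 change of -1.42 ± 0.51 (edgeR adjusted p = 0.0377) lost the threshold under 13 of 17 alternatives, at -0.88 without MM3MG replicate 1 (edgeR adjusted p = 0.172) and -0.67 with the 6 arms left out of the scaling (edgeR adjusted p = 0.254). miR-19a-3p was at 1566, 1169 and 1504 CPM in TUBO cells and also overlapped MM3MG, with -0.54 ± 0.43 (edgeR adjusted p = 0.278); its sign turned to 0.21 with the 6 arms left out of the scaling. Without MM3MG replicate 3 the changes were -1.65 for miR-19b-3p (edgeR adjusted p = 2.9e-12) and -0.73 for miR-19a-3p (edgeR adjusted p = 5.4e-06).

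Both Neu-carrying lines were then set against each other, with the same libraries as above. All 6 guide arms were lower in TUBO cells than in MM3MG-Her2, with no overlap between the libraries of the groups for any arm. Of all 260 arms, 81.5% passed in either direction, 55.8% were lower, and 79.6% had no overlap, with 32.3% higher and 47.3% lower; the median of all arms was -0.73, and the members are set against it further on. The log2 changes were -1.06 ± 0.11 for miR-92a-3p (edgeR adjusted p = 3.4e-10), -1.08 ± 0.16 for miR-17-5p (edgeR adjusted p = 4.2e-07), -1.19 ± 0.13 for miR-20a-5p (edgeR adjusted p = 3.6e-09) and -1.30 ± 0.22 for miR-18a-5p (edgeR adjusted p = 5.8e-06). miR-19b-3p and miR-19a-3p both changed by -1.70, with SE of 0.52 (edgeR adjusted p = 0.0203) and 0.44 (edgeR adjusted p = 0.00972). The 6 changes spanned 0.64 on the log2 scale, less than in the other 5 comparisons, which spanned 1.67 or more.

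Relative to the median of all arms, the members were lower by smaller amounts, -0.33 for miR-92a-3p and -0.35 for miR-17-5p, up to -0.97 for both miR-19 arms. With the 6 arms left out of totals and scaling, miR-92a-3p changed by -0.43, miR-17-5p by -0.45, miR-20a-5p by -0.56 and miR-18a-5p by -0.67, all still past the threshold, whereas miR-19a-3p at -1.07 (edgeR adjusted p = 0.0639) and miR-19b-3p at -1.06 (edgeR adjusted p = 0.105) were not. All arms then split into 89 higher and 107 lower, against 67 higher and 145 lower with the usual scaling. Leaving out MM3MG-Her2 replicate 1 gave -0.45 for miR-17-5p, -0.50 for miR-92a-3p, -0.63 for miR-20a-5p, -0.66 for miR-18a-5p, -1.11 for miR-19b-3p and -1.17 for miR-19a-3p. Leaving out replicate 3 gave -0.41 for miR-92a-3p, -0.43 for miR-17-5p, -0.53 for miR-20a-5p, -0.64 for miR-18a-5p, -0.95 for miR-19a-3p and -0.96 for miR-19b-3p. Both miR-19 arms lost the threshold without either of these libraries.

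**Figure D2:**
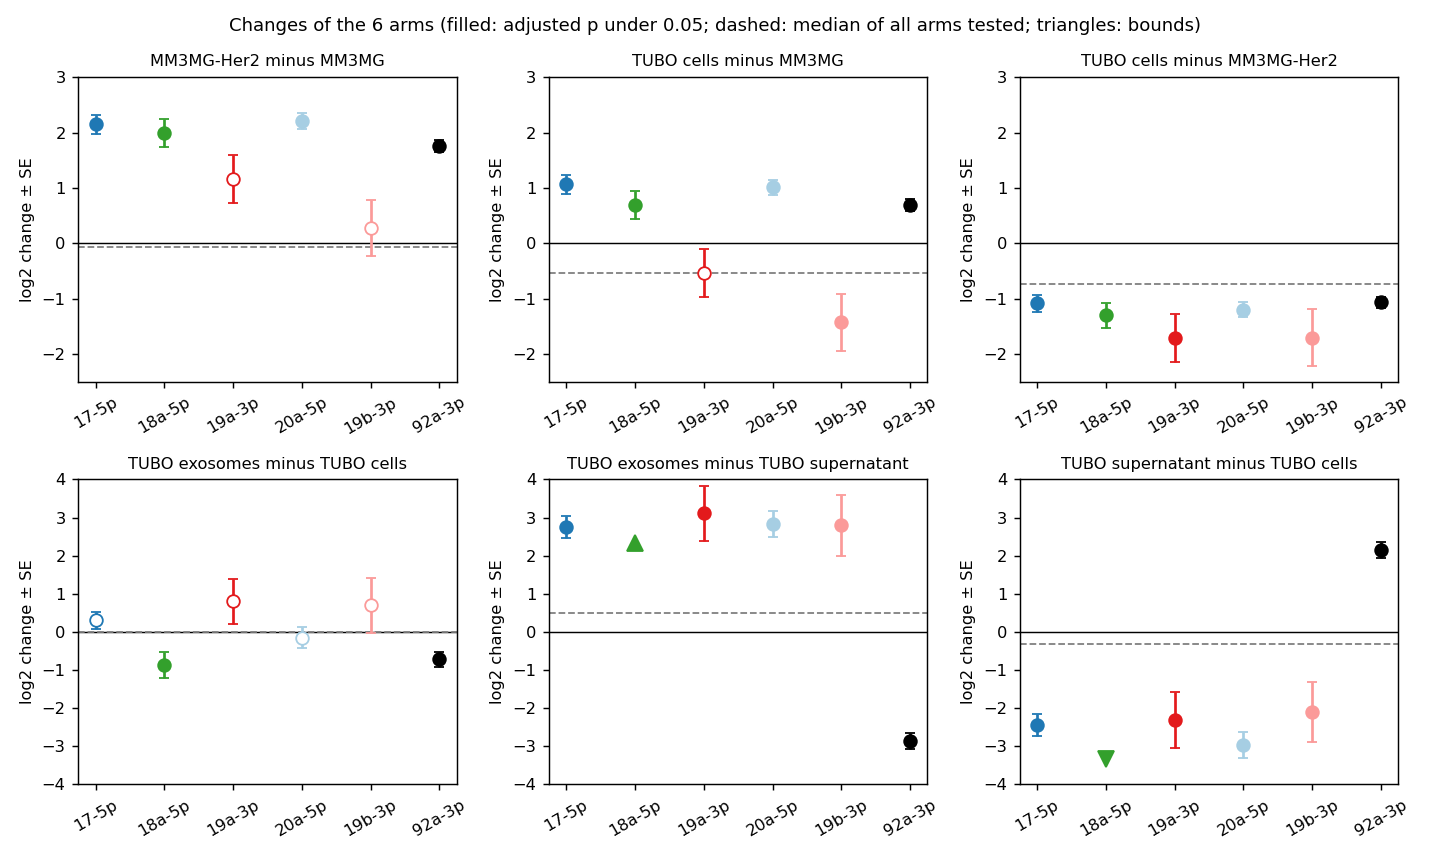
Fitted log2 change ± SE of the 6 guide arms in each comparison, first-named group minus second, in transcript order; filled points passed the threshold, the dashed line is the median of all arms tested, and triangles are bounds for miR-18a-5p where the supernatant had 0 reads. In MM3MG-Her2 minus MM3MG, miR-19b-3p at 0.27 lies apart from miR-17-5p at 2.15, and in both comparisons with the supernatant miR-92a-3p points the other way from the other 5 arms.

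Exosomes were compared with TUBO cells, from whose medium they were isolated. None of the 6 guide arms was higher in exosomes, miR-18a-5p and miR-92a-3p were lower, and 4 did not pass. Of the 221 arms tested in the TUBO fractions, 37.1% passed in either direction and 15.8% were lower; 63.8% had no overlap between the libraries, with 25.8% higher and 38% lower. miR-92a-3p was at 32672, 30986 and 43629 CPM in exosomes, below the 3 TUBO cell libraries, with a log2 change of -0.72 ± 0.19 (edgeR adjusted p = 0.00515). miR-18a-5p was at 91.1, 63.4 and 62.9 CPM in exosomes, also below the cells, with -0.87 ± 0.33 (edgeR adjusted p = 0.0487). That of miR-18a-5p missed the threshold under 9 of 17 alternatives. That of miR-92a-3p missed it under 2 of 17, upper-quartile scaling (-0.52, edgeR adjusted p = 0.104) and the fit without exosome replicate 1 (-0.74, edgeR adjusted p = 0.0555).

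Of the miR-17 seed arms, miR-17-5p was at 989.9, 899.7 and 1062 CPM in exosomes, overlapping the cells, with a log2 change of 0.31 ± 0.22 (edgeR adjusted p = 0.286). miR-20a-5p was at 1742, 1778 and 1772 CPM in exosomes, below the cells in every library, but its scaled log2 change was -0.15 ± 0.28 (edgeR adjusted p = 0.693). The miR-19 arms were the most uneven: miR-19a-3p was at 963, 3839 and 1824 CPM and miR-19b-3p at 2138, 10956 and 5280 CPM in the 3 exosome libraries. Their ranges enclosed those of the cells, with log2 changes of 0.80 ± 0.59 for miR-19a-3p (edgeR adjusted p = 0.323) and 0.70 ± 0.71 for miR-19b-3p (edgeR adjusted p = 0.482). Without exosome replicate 2 these were 0.16 and -0.00. All arms split into 47 higher and 35 lower here, into 59 higher and 21 lower with upper-quartile scaling, and the other way with RLE scaling (43 higher, 50 lower), with no scaling beyond the total (42 higher, 48 lower) and with DESeq2 (45 higher, 57 lower).

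The supernatant left after exosome isolation had a different make-up of the cluster. There miR-92a-3p reached 259327, 248015 and 250675 CPM and was higher than in TUBO cells by a log2 change of 2.15 ± 0.20 (edgeR adjusted p = 7.8e-09). The other 5 guide arms were lower in the supernatant than in TUBO cells. Of the 221 arms, 72.4% passed in either direction, 33.5% higher and 38.9% lower, and the median of all arms was -0.32. The median over the 6 guide arms was -2.37, also with miR-18a-5p at its bound.

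miR-17-5p was at 178, 123 and 121 CPM in the supernatant, a change of -2.44 ± 0.29 against TUBO cells (edgeR adjusted p = 2.2e-07). miR-20a-5p was at 411, 229 and 80.6 CPM, a change of -2.97 ± 0.34 (edgeR adjusted p = 2.1e-07), and -3.56 without supernatant replicate 1. For both, every supernatant library lay below every TUBO cell library; of all arms, 73.8% had no overlap, with 29.4% higher and 44.3% lower. miR-18a-5p had 0 reads in all 3 supernatant libraries. Against a floor of 3 reads over the group, or 14.7 CPM, it was at least 10.1-fold lower than in TUBO cells. It was tested here only because cells and exosomes had reads. Its call could go only in that direction, so no p-value is given, although it is counted among the lower arms above. miR-19a-3p was at 411, 299.9 and 40.3 CPM in the supernatant, a change of -2.31 ± 0.72 (edgeR adjusted p = 0.0205), and miR-19b-3p at 1221, 1217 and 175 CPM, a change of -2.10 ± 0.78 (edgeR adjusted p = 0.0444). Supernatant replicate 3 was the lowest for both miR-19 arms; without it the changes were -1.87 (edgeR adjusted p = 0.0136) and -1.69 (edgeR adjusted p = 0.0199). miR-19b-3p lost the threshold under 3 of 17 alternatives, among them the fit without supernatant replicate 2 (-2.19, edgeR adjusted p = 0.0534) and the replicate number as a block (edgeR adjusted p = 0.0998). miR-19a-3p lost it under 1 of 17, that same block (edgeR adjusted p = 0.0741). The reads behind these levels were few, 29 for miR-17-5p, 49 for miR-20a-5p, 50 for miR-19a-3p and 171 for miR-19b-3p over the 3 libraries, against 51621 for miR-92a-3p. Since the 3 TUBO groups were fitted together, the comparisons with TUBO cells share those libraries.

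Last, the 2 fractions of the medium were compared, from the same libraries as above. In exosomes 5 guide arms were higher than in the supernatant and miR-92a-3p was lower. Of the 221 arms, 67% passed in either direction, 39.4% higher and 27.6% lower, with a median of 0.49 over all arms and of 2.81 over the 6 (2.77 with miR-18a-5p at its bound). The log2 change of miR-92a-3p was -2.87 ± 0.21 (edgeR adjusted p = 1.5e-10). miR-17-5p was higher by 2.74 ± 0.29 (edgeR adjusted p = 4.4e-08) and miR-20a-5p by 2.83 ± 0.34 (edgeR adjusted p = 4.4e-07). With 0 reads in the supernatant, miR-18a-5p was at least 5.04-fold higher in exosomes. It passed the filter on low counts only through cells and exosomes. Its call could go only in that direction, so no p-value is given, although it is counted among the 5 higher arms. miR-19a-3p was higher by 3.11 ± 0.73 (edgeR adjusted p = 0.00552), 2.35 without exosome replicate 2 and 2.53 without supernatant replicate 3, and miR-19b-3p by 2.80 ± 0.80 (edgeR adjusted p = 0.0167), 1.96 without exosome replicate 2. That of miR-19b-3p lost the threshold under 1 of 17 alternatives, the replicate number as a block (edgeR adjusted p = 0.0697). For all 6 arms the exosome and supernatant libraries did not overlap, which held for 68.3% of all arms, with 41.2% higher and 27.1% lower.

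Over the 5 groups, the levels of miR-20a-5p had the order MM3MG-Her2, TUBO cells, exosomes, MM3MG and supernatant, from high to low, with no overlap between any neighbours. miR-17-5p had the same order except that exosomes and TUBO cells, which overlapped, changed places. For miR-18a-5p exosomes and MM3MG overlapped and the other neighbours did not. For miR-92a-3p the supernatant stood first, and only exosomes and MM3MG overlapped. For miR-19a-3p and miR-19b-3p only the lowest step, the supernatant below TUBO cells, was free of overlap. In the 6 comparisons above, 63.8% to 82.3% of all arms tested had no overlap between the groups, so such steps were common. These orders use CPM with no further scaling. With scaling, the step of miR-20a-5p from TUBO cells to exosomes was -0.15 and did not pass (edgeR adjusted p = 0.693).

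Arms of 1 transcript can be set against each other without any scaling between libraries, by taking log2(CPM + 1) of an arm minus the mean of the 6 in the same library. This balance was tested with an exact permutation test over the 280 ways to split 9 libraries into 3 groups of 3, whose smallest p is 0.00357, with adjustment over 12 tests. Across the 3 cell groups, miR-20a-5p and miR-19b-3p differed (both with exact permutation p = 0.00357, adjusted p = 0.0107). miR-20a-5p stood at -0.01 ± 0.05 relative to the cluster mean in TUBO cells, -0.16 ± 0.07 in MM3MG-Her2 and -0.69 ± 0.47 in MM3MG. The mean it is set against holds the uneven miR-19 arms, and the ratio of miR-20a-5p to miR-17-5p was 2.47 ± 0.22 in TUBO cells, 2.67 ± 0.22 in MM3MG-Her2 and 2.63 ± 0.47 in MM3MG. The balance of miR-19b-3p was 0.93 ± 0.15 in TUBO cells, 1.29 ± 0.10 in MM3MG-Her2 and 2.44 ± 0.77 in MM3MG (SD, n = 3 each), higher in every MM3MG library than in any library of the lines with Neu. The other 4 arms did not pass across the cell groups, with exact permutation adjusted p from 0.25 to 0.544.

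Across the TUBO fractions, the balance of miR-92a-3p differed (exact permutation p = 0.00357, adjusted p = 0.0107). miR-92a-3p stood at 4.25 ± 0.41 in exosomes, 9.70 ± 0.78 in the supernatant and 4.90 ± 0.04 in TUBO cells. miR-18a-5p stood at -4.69 ± 0.60 in exosomes and -3.87 ± 0.13 in TUBO cells. Its -8.24 in the supernatant is set by the pseudocount, since its reads were 0, so no test of it is given. That test is still 1 of the 12 adjusted together, and so enters the adjusted p-values of the other arms. The value of -8.24 also lowers the mean against which the other arms are set. Of all reads of the cluster, miR-92a-3p held 76.6% ± 11.2 in exosomes, 99.4% ± 0.369 in the supernatant, 88.1% ± 0.736 in TUBO cells, 84.3% ± 1.14 in MM3MG-Her2 and 73.8% ± 12.8 in MM3MG. The ratio of miR-92a-3p to miR-17-5p reads, pooled over libraries, was 36.2 in exosomes, 1780 in the supernatant, 74.4 in TUBO cells, 73.3 in MM3MG-Her2 and 95.2 in MM3MG.

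**Figure D3:**
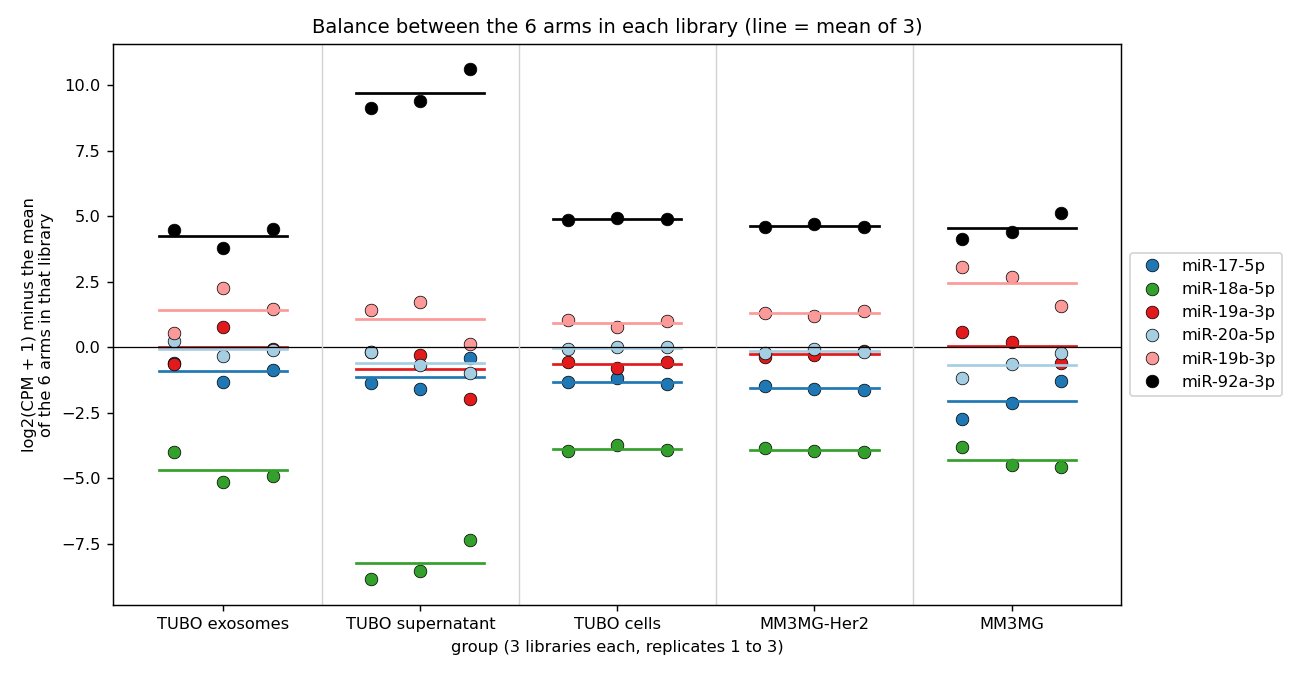
Balance of the 6 guide arms in each library, as log2(CPM + 1) minus the mean of the 6 arms in that library, by group with replicates 1 to 3 from left to right; lines are means of 3. miR-92a-3p stands at 9.13 to 10.60 in the supernatant and at 3.78 to 5.14 in the other 12 libraries.

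The miR-19 arms moved together from library to library. Within groups, over the 4 groups other than the supernatant (8 residual degrees of freedom), the SD of log2 CPM was 0.842 for miR-19b-3p and 0.716 for miR-19a-3p, but 0.147 for the ratio of these 2 arms. It was 0.141 for miR-20a-5p, 0.168 for miR-92a-3p, 0.222 for miR-17-5p and 0.406 for miR-18a-5p. The ratios among miR-17-5p, miR-20a-5p and miR-92a-3p had SDs of 0.156 to 0.172, while ratios that paired a miR-19 arm with any arm outside its family had SDs of 0.675 to 0.983. In MM3MG replicate 3, miR-19b-3p was 2.00 lower on the log2 scale than in the other MM3MG libraries, the lowest of 161 arms of at least 100 CPM, and miR-19a-3p was 1.70 lower, with 1 arm below it. Exosome replicate 2 was the reverse case: miR-19b-3p was 1.70 higher than in the other exosome libraries, the highest of 138 arms, and miR-19a-3p 1.53 higher, with 1 arm above it. In exosome replicate 1 the pair stood at -1.83 and -1.46, and miR-19b-3p was the lowest of 138 arms. The 2 sequences share the seed and all but 1 of the first 18 bases. G and C made up 34.8% of miR-19a-3p and 39.1% of miR-19b-3p, but also 39.1% of miR-20a-5p, whose SD was 0.141. The part that sequence and G and C content play in the spread was not tested.

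**Figure D4:**
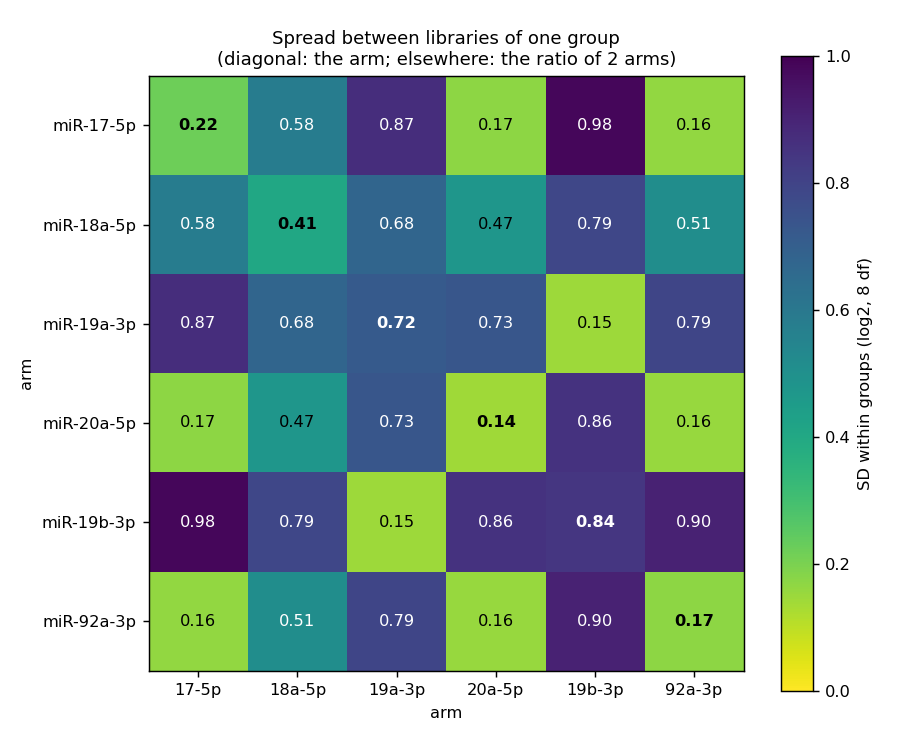
SD within groups, on the log2 scale, of each guide arm (diagonal) and of the ratio of each pair (elsewhere), over 12 libraries without the supernatant. The ratio of miR-19a-3p to miR-19b-3p has an SD of 0.147, against 0.842 for miR-19b-3p alone, while 3 arms, miR-17-5p, miR-20a-5p and miR-92a-3p, have SDs of 0.222 or less and pair ratios of 0.172 or less.

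The ratio of miR-19b-3p to miR-19a-3p was 3.01, 2.95 and 2.97 in TUBO cells and 3.18, 2.81 and 2.90 in MM3MG-Her2, against 5.64, 5.61 and 4.56 in MM3MG. It was 2.22, 2.85 and 2.89 in exosomes and 2.97, 4.06 and 4.33 in the supernatant. All 3 MM3MG libraries stood above the other 12, including MM3MG replicate 3, in which both arms were low. This ratio was examined after the values were seen and is given with no test.

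The passenger arms give a second readout of the same hairpins, at low counts. Of 6 passenger arms, miR-17-3p and miR-92a-1-5p had enough reads to be tested. The other 4 had 29.96 CPM or less on average in every group, the highest being miR-18a-3p in the supernatant. It was at 41.1, 35.3 and 13.4 CPM there, from 6 reads in all, while its guide arm miR-18a-5p had 0 reads. The 2 tested arms were both higher in MM3MG-Her2 than in MM3MG. miR-92a-1-5p was at 418, 379.6 and 335 CPM in MM3MG-Her2, against 56.5, 48.9 and 104 CPM in MM3MG, a log2 change of 2.37 ± 0.24 (edgeR adjusted p = 9.4e-10). miR-17-3p averaged 159 ± 19.9 CPM in MM3MG-Her2 and 75.6 ± 9.65 CPM in MM3MG (SD, n = 3 each), a log2 change of 0.98 ± 0.25 (edgeR adjusted p = 0.00115), smaller than the 2.15 of its guide arm, a difference that was not tested. In TUBO cells against MM3MG, miR-92a-1-5p was higher by 0.60 ± 0.25 (edgeR adjusted p = 0.0295) and miR-17-3p did not pass, at -0.38 ± 0.25 (edgeR adjusted p = 0.152), beside 1.07 for its guide arm. Both were lower in TUBO cells than in MM3MG-Her2, by -1.76 ± 0.21 for miR-92a-1-5p (edgeR adjusted p = 1.5e-08) and -1.36 ± 0.24 for miR-17-3p (edgeR adjusted p = 9.8e-06). In exosomes against TUBO cells miR-17-3p did not pass, at -0.80 ± 0.40 (edgeR adjusted p = 0.122). In exosomes miR-92a-1-5p averaged 16.7 ± 7.11 CPM, against 137 ± 17.4 CPM in TUBO cells, a log2 change of -2.80 ± 0.41 (edgeR adjusted p = 1.0e-05). In the supernatant, where miR-92a-3p was so high, miR-92a-1-5p had 1 read against 51621 of its guide arm.

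The related miR-106b-25 cluster on chromosome 5 encodes arms with 2 of the same seeds, and miR-92b-3p comes from a gene of its own on chromosome 3. The sequences show where they differ from the arms above; capitals mark the seed.
miR-106b-5p: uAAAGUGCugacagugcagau
miR-93-5p: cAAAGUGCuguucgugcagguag
miR-25-3p: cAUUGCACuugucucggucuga
miR-92b-3p: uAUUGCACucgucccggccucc

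Counting from the 5′ end of miR-92a-3p, miR-92b-3p differs in the first 18 bases by U10C, and miR-25-3p by U1C, C14U and C18U. All 3 guide arms of miR-106b-25 were higher in MM3MG-Her2 than in MM3MG, as were 26.2% of all arms tested. miR-93-5p was higher by 1.43 ± 0.13 (edgeR adjusted p = 3.9e-11), miR-106b-5p by 0.80 ± 0.16 (edgeR adjusted p = 5.4e-05) and miR-25-3p by 0.60 ± 0.12 (edgeR adjusted p = 5.0e-05). The 3 arms were also higher in TUBO cells than in MM3MG, as were 30% of all arms, by 1.43, 0.80 and 0.34 in the same order. Between TUBO cells and MM3MG-Her2, miR-93-5p changed by -0.00 ± 0.12 and miR-106b-5p by 0.00 ± 0.15 (edgeR adjusted p = 0.999 each). There miR-25-3p was lower in TUBO cells by a log2 change of -0.26 ± 0.12 (edgeR adjusted p = 0.0402), and the median of all arms was -0.73.

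In the medium, with the AUUGCAC seed, miR-25-3p was at 76452, 83407 and 130410 CPM in the supernatant, against 22194, 25476 and 22630 CPM in TUBO cells, a change of 2.25 ± 0.23 (edgeR adjusted p = 3.3e-08). miR-92b-3p was at 12289.5, 11290.3 and 17858 CPM in the supernatant, against 1226, 1141 and 1163 CPM in TUBO cells, a change of 3.76 ± 0.26 (edgeR adjusted p = 5.2e-11). With the AAAGUGC seed, miR-93-5p changed by -1.17 ± 0.24 (edgeR adjusted p = 1.9e-04) and miR-106b-5p by -3.44 ± 0.41 (edgeR adjusted p = 1.9e-07), both lower in the supernatant than in TUBO cells. In exosomes, miR-93-5p was at 16147, 15079 and 15596 CPM, against 6540, 6504 and 7042 CPM in TUBO cells, a change of 1.38 ± 0.23 (edgeR adjusted p = 6.1e-05). miR-25-3p was also higher in exosomes than in TUBO cells, by 1.01 ± 0.23 (edgeR adjusted p = 0.00119), whereas miR-106b-5p at -0.02 ± 0.26 (edgeR adjusted p = 0.959) and miR-92b-3p at -0.11 ± 0.23 (edgeR adjusted p = 0.715) did not pass. Summed over their arms, members of the AUUGCAC family held 7.90% ± 1.455 of miRNA reads in exosomes, 36.3% ± 3.10 in the supernatant, 9.02% ± 0.110 in TUBO cells, 13.5% ± 0.849 in MM3MG-Her2 and 4.54% ± 0.421 in MM3MG. The AAAGUGC family held 1.90% ± 0.0546 in exosomes, 0.305% ± 0.111 in the supernatant, 1.05% ± 0.0347 in TUBO cells, 1.17% ± 0.0601 in MM3MG-Her2 and 0.337% ± 0.0403 in MM3MG. Whether the changes differ by seed was not tested.

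The ends of the inserts were a readout that the choice of arms did not use beyond its length limits. miR-92a-3p mostly ended 1 base past the RefSeq end. Its 3 most frequent inserts are shown with the bases past that end in capitals; they held 70.7%, 5.08% and 4.57% of its reads.
miR-92a-3p, 22 bases: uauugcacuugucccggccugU
miR-92a-3p, 23 bases: uauugcacuugucccggccugUA
miR-92a-3p, 24 bases: uauugcacuugucccggccugUAU

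The mean insert length of miR-92a-3p was 22.29 ± 0.03 bases in exosomes, 21.83 ± 0.07 in the supernatant and 22.25 ± 0.01 in TUBO cells (SD, n = 3 each), which differed in the exact permutation test (adjusted p = 0.0262 over 11 tests). Across the cell groups it was 22.25 ± 0.01 in TUBO cells, 22.51 ± 0.01 in MM3MG-Her2 and 22.55 ± 0.03 in MM3MG (exact permutation adjusted p = 0.0262). Bases past the match to the hairpin were counted as a second readout of the same ends. A tail made of A alone closed 8.19% ± 0.75 of the reads in exosomes, 0.622% ± 0.0686 in the supernatant, 8.93% ± 0.423 in TUBO cells, 17.6% ± 0.138 in MM3MG-Her2 and 15.1% ± 0.223 in MM3MG. Reads that matched the hairpin to their last base made up 80.4% ± 2.30 in exosomes, 97.3% ± 0.264 in the supernatant and 81.8% ± 0.681 in TUBO cells. Short inserts of all kinds were also more frequent in the supernatant, as given above, and their part in the length was not tested.

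**Figure D5:**
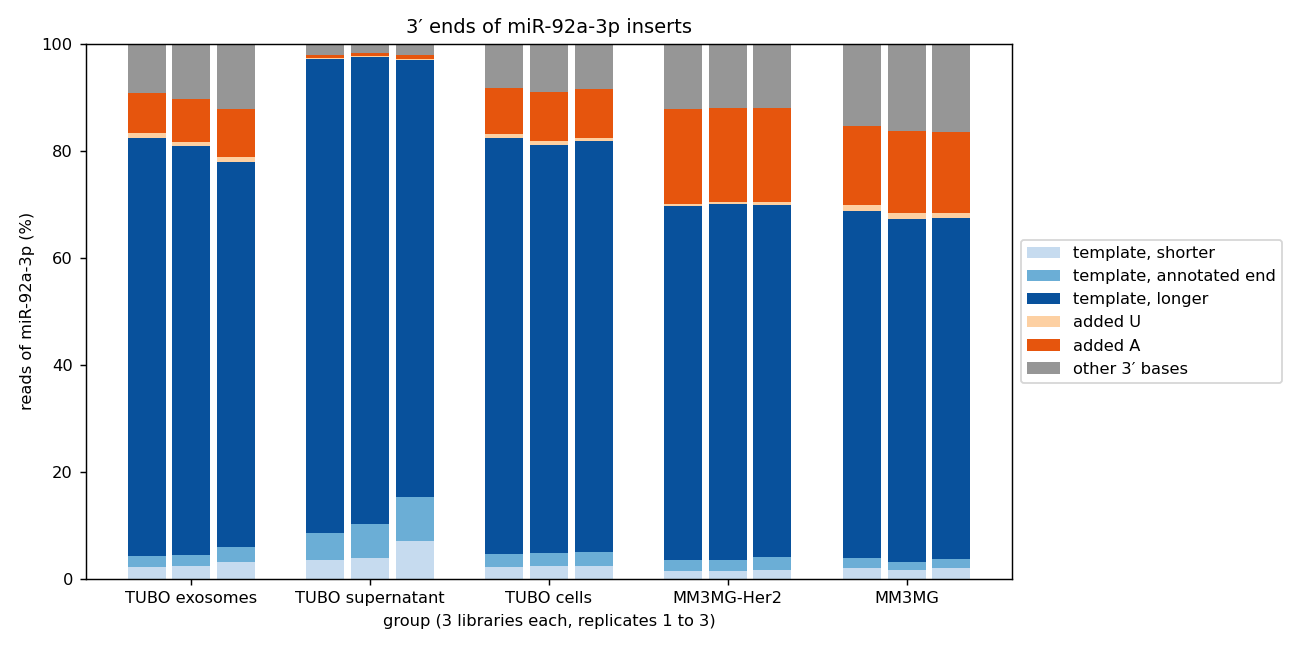
3′ ends of miR-92a-3p reads in each library, in percent of its reads: matching the hairpin and shorter than, equal to or longer than the RefSeq arm, or closing with U, A or other bases past the match. The 3 supernatant libraries hold 0.562% to 0.697% of reads with added A, against 7.56% to 17.8% in the other 12.

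The mean insert length of miR-18a-5p also differed across the cell groups (exact permutation adjusted p = 0.0262), at 21.98 ± 0.09 bases in TUBO cells, 22.37 ± 0.06 in MM3MG-Her2 and 21.63 ± 0.41 in MM3MG, from 208, 191 and 76 reads. The other 4 arms did not pass in either set of libraries, and that of miR-18a-5p across the fractions could not be tested with 0 reads in the supernatant. miR-19a-3p and miR-19b-3p ended 1 base before their RefSeq end in 89.3% and 90.7% of reads. miR-17-5p and miR-20a-5p kept the RefSeq end in 58.1% and 74.7%.

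The arms outside the cluster whose levels ran most like the mean of the 6 over the 15 libraries were, by Pearson's r of log2(CPM + 1) among 220 arms compared, miR-374b-5p (r = 0.962), miR-30e-5p (0.957), miR-7a-5p (0.954), let-7e-5p (0.933) and miR-27a-5p (0.915). These values are a description: the libraries fall into 5 groups and differ in depth, and each of the 5 arms had its lowest group mean in the supernatant. None of the 5 ran with miR-92a-3p, with r from -0.67 to -0.46.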

How the data were processed

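The authors deposited, for each library, raw counts of reads per distinct insert sequence, with adapters removed and identical reads collapsed as far as the values show. Per the labels' protocols, RNA was extracted with TRIzol, ligated to adapters, amplified and selected on a gel. For the trimming tool, the aligner and the genome build, nothing is given in the sources used here. No molecular identifiers are named, so PCR copies count as reads, and limits from a count of 0 cover counting error only.

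Inserts of 18 to 26 bases were assigned to a miRNA arm by an exact match of their first 18 bases to 1679 RefSeq mature names (GRCm38.p6) and 140 arms added from named GENCODE hairpins; 24 features carry joint names. The columns hold 0 values of samples not listed in the labels. edgeR 4.0.16 (R 4.3.3; TMM scaling, default filter on low counts, robust quasi-likelihood test, Benjamini-Hochberg adjustment) was fitted to the 9 cell libraries and to the 9 TUBO libraries, and tested on simulated data. Each SE of a log2 change was derived from that test, as the size of the change divided by the square root of its F statistic. DESeq2 1.42.0 was an alternative. Exact permutation tests over libraries went through every split, in Python 3.11.15 with numpy 2.4.6, with a pseudocount of 1 CPM in the balance.

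The 6 guide arms, their passenger arms, the paralogous arms and the 5 arms most like the cluster's mean (among those of at least 100 CPM in a group) were named by rule. The members and lists were chosen with earlier results of these data known. Replicates were no duplicates of each other, with chi-square per degree of freedom of 4.02 to 90.2. Libraries with the same replicate number did not deviate together in 5 comparisons, with correlations of -0.104 to 0.0699. In exosomes against supernatant they were 0.0560 to 0.239, against -0.258 to 0.218 for different numbers. The labels state no pairing, and the numbers were not used to pair libraries.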

Additional observations from a re-analysis of the deposited data

How the results depend on the processing

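Of the results on comparisons, 261 counts or differences stayed close in size under the alternatives run and 15 moved, although the split of all called arms into higher and lower shifted in 4 of the 6 comparisons, as given there; of those on single arms, 553 kept direction and call, 43 lost the threshold, 8 gained it and 8 changed sign. The count of guide arms past the threshold between exosomes and TUBO cells, 2, was 0 with upper-quartile scaling, 1 with the members left out of totals and scaling, 1 with no filter on low counts and 1 without any single replicate (range 1 to 1). As differences in the share of all reads, the summed share of the cluster was -4.80 percentage points for exosomes minus supernatant (-20.7 of miRNA reads), 1.98 for supernatant minus TUBO cells (17.98), -1.09 for TUBO cells minus MM3MG-Her2 (-5.83), 2.46 for TUBO cells minus MM3MG (3.21) and 3.55 for MM3MG-Her2 minus MM3MG (9.04).

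miR-19b-3p in MM3MG-Her2 minus MM3MG changed sign to -0.11 with all 15 libraries in 1 fit, and to -0.61, -0.24 and -0.28 without MM3MG replicate 3, MM3MG-Her2 replicate 1 and MM3MG-Her2 replicate 3 (range without 1 replicate -0.61 to 0.47). miR-19a-3p in TUBO cells minus MM3MG changed sign to 0.21 with the members left out of totals and scaling and to 0.073 with no filter on low counts. In exosomes minus TUBO cells, miR-20a-5p changed sign to 0.057 with upper-quartile scaling and miR-19b-3p to -0.0042 without exosome replicate 2 (range without 1 replicate -0.0042 to 0.98). The causes were not tested.

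With the replicate number as a block, 1 guide arm passed between exosomes and TUBO cells, where miR-18a-5p was lost (edgeR adjusted p = 0.0850). The block also lost miR-19b-3p in exosomes minus supernatant (0.0697), in supernatant minus TUBO cells (0.0998) and in TUBO cells minus MM3MG (0.0836), and miR-19a-3p in supernatant minus TUBO cells (0.0741). Correlations of same-numbered libraries were -0.104 to 0.0699 in 5 comparisons and 0.0560 to 0.239 in exosomes against supernatant. Depth limits the supernatant most, where 29 to 171 reads stand behind 4 of the 6 arms and 0 behind miR-18a-5p.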
